A study of Mus musculus with 2 samples.

Results

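Planar cell polarity and apical junction genes were followed in total RNA from the forebrain of mouse embryos at 10.5 days of development. The 45 genes are a list of names, set by known function with no threshold on a measured value. The list was chosen with earlier results of these data known, so shares of detected members are descriptive only. All 45 genes were matched by Ensembl identifier among the 43346 annotated genes of both libraries. They fall into 18 genes of planar polarity, 17 genes of the Par, Crumbs and Scribble modules of apicobasal polarity, and 10 genes of apical junctions and neural tube closure. Both libraries belong to a single group, healthy embryos of strain B6NCrl with male and female embryos pooled, and each was made from 10 ng of RNA. Replicate 1 came from a pool of 69 forebrains and replicate 2 from a pool of 51 forebrains. No second tissue, stage or treatment is labelled, so each level is compared with that of other genes in the same library, and each pool with the other. No exact two-sided sign flip test over 2 libraries can go below p = 0.5, and no p-value is given. Values with an error give the mean and the SD over both libraries (n = 2).

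Planar polarity aligns cells within the plane of an epithelium. In the core pathway the transmembrane proteins Vangl, Celsr and Frizzled sort to opposite faces of neighbouring cells, with Prickle on the Vangl side and Dishevelled (Dvl) on the Frizzled side. Apicobasal polarity separates the apical surface, marked by the Crumbs and Par complexes, from the basolateral surface, marked by the Scribble module. At this age the forebrain wall is a neuroepithelium whose apical surface lines the ventricle. Apical junctions of neuroepithelial cells carry the actin belt that narrows the cell apex when the neural plate bends and closes.

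The libraries held 43021202 and 39215064 expected counts (reads assigned to genes by the authors' model, which need not be whole), of which 3.45% and 3.07% lay outside annotated genes. Levels are given in TPM, a relative abundance of transcripts after division by length. All 5 forebrain markers were detected, led by Lhx2 at 91.7 and 98.3 TPM and Nr2e1 at 68.6 and 74.9 TPM, and none of 6 markers of posterior neural tissue was. Neuroepithelium markers were high, with Vim at 768 and 762 TPM and Hes5 at 249 and 232 TPM. The pieces also held RNA of other cells. Of 8 surface ectoderm markers 7 were detected, led by Krt8 at 32.8 and 30.4 TPM and Krt18 at 29.9 and 32.5 TPM, while Krt5 was at 0.31 and 0.35 TPM. All 6 mesenchyme markers were detected, led by Col3a1 (251 and 251 TPM) and Col1a2 (83.5 and 80.9 TPM), and so were all 6 endothelium markers, led by Esam (22.9 and 23.1 TPM) and Kdr (20.4 and 21.98 TPM). In such bulk tissue, fewer cells of a type and less RNA per cell cannot be told apart.

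Nearly all of the polarity genes were expressed, mostly at moderate levels. At 1 TPM or more in both libraries, 44 of 45 members were detected, and Crb1 was the exception. The same limit was passed by 32.4% of all annotated genes and by 57.3% of protein-coding genes. At 10 TPM or more in both libraries stood 23 of 45 members, against 37.8% of protein-coding genes. The median member lay at 13.4 ± 0.884 TPM, below the median of the 12315 detected protein-coding genes, 20.2 ± 0.198 TPM. By group the median was 16.0 ± 0.997 TPM for the apicobasal genes, 7.92 ± 0.279 TPM for the planar genes and 6.88 ± 0.350 TPM for the junction and closure genes. Each group spread far more widely than its libraries did. Planar genes ran from 1.71 to 56.6 TPM, apicobasal genes from 0.505 to 124 TPM, and junction and closure genes from 1.68 to 76.2 TPM.

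**Figure D1:**
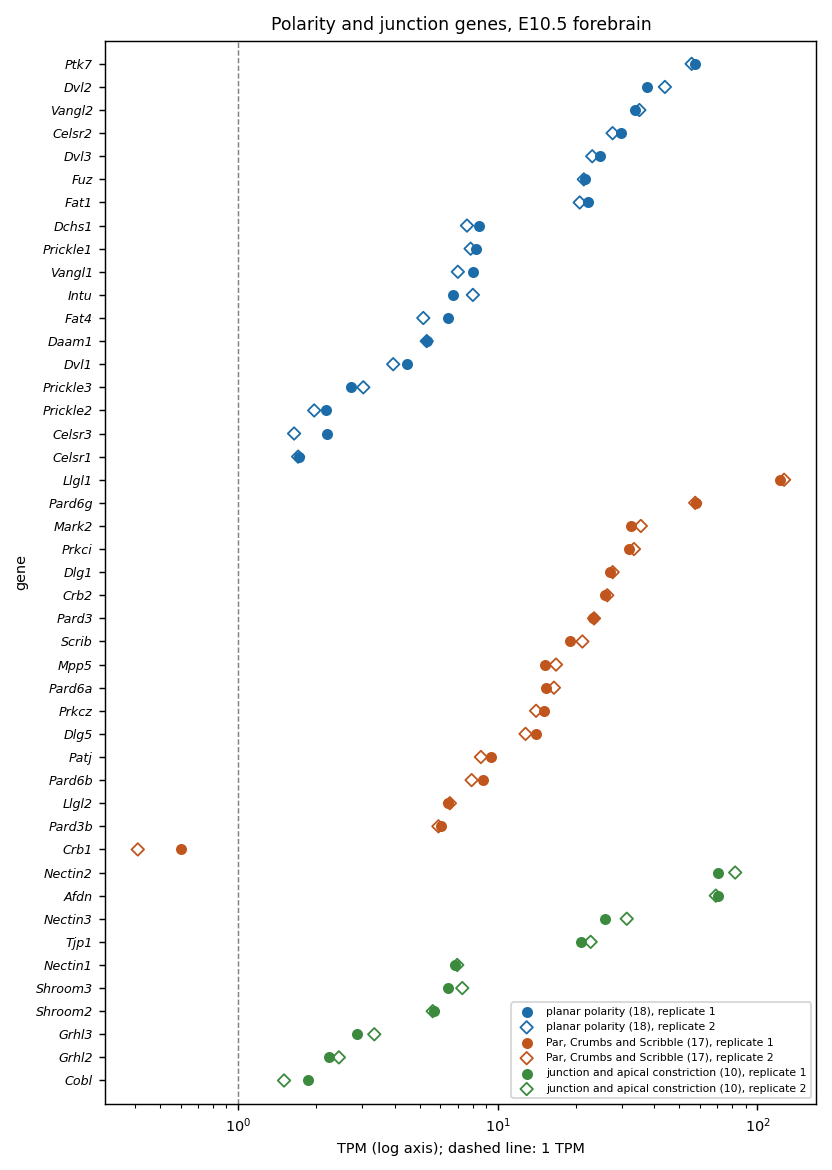
TPM of the 45 genes on a log axis, grouped by role and ordered by mean, with a filled circle for replicate 1, an open diamond for replicate 2 and a dashed line at 1 TPM. Llgl1 is highest at 122 and 127 TPM, and Crb1 alone lies left of the line at 0.60 and 0.41 TPM.

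In the membrane core of the planar pathway a single paralog led each family. Vangl2, the four-pass membrane protein whose loss leaves the mouse neural tube open, was at 33.8 TPM in replicate 1 and 35.1 TPM in replicate 2. Its paralog Vangl1 was at 8.01 and 7.01 TPM, so the ranges lay apart, and Vangl2 made up 82.1 ± 1.76% of the TPM of both genes. The log2 ratio of Vangl2 to Vangl1 was 2.19 ± 0.17, a 4.55-fold difference. Among the atypical cadherins of the Celsr family, which bridge neighbouring cells, Celsr2 was at 29.9 and 27.7 TPM. Celsr1, the family member best known from neural tube closure, was at 1.71 and 1.70 TPM. Celsr3, known for its role in axon tracts, was at 2.20 and 1.64 TPM, a range that contains that of Celsr1. Celsr2 stood 16.0-fold over Celsr1 and 14.4-fold over Celsr3, folds that fell to 5.33 and 7.20 when only complete coding transcripts were summed. The log2 ratio of Celsr1 to Celsr3 was -0.15 ± 0.28, with opposite signs in the 2 libraries, and it was 0.43 over complete coding transcripts. Ptk7, a membrane pseudokinase that works with Vangl2 in closure, had the highest level of the planar genes at 57.4 and 55.8 TPM.

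Vangl2 lies at chr1:172000960-172028444 on the minus strand (GRCm38). Its leading transcript held 66.2% and 68.2% of the gene's TPM, and a second complete coding transcript held 24.4% and 19.9%. The coding parts of these transcripts differ by a single stretch of 120 bases, at chr1:172008799-172008918, which the leading transcript lacks. It is shown because it is all that separates the coding parts of the main Vangl2 messages. Capitals mark the stretch, lower case the 12 coding bases on either side, and the sequence was read from the GENCODE M21 transcript sequences.
Vangl2 stretch: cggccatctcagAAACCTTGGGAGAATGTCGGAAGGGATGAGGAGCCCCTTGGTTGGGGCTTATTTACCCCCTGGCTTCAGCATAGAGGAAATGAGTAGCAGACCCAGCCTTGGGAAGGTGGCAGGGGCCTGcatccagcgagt
Of the TPM in Vangl2 transcripts that span the place, 27.4% in replicate 1 and 22.5% in replicate 2 came from transcripts that hold the stretch. Transcripts without it were the larger part in both libraries.

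The cytoplasmic core was again uneven. Prickle proteins carry LIM domains and bind Vangl at the membrane. Prickle1 was at 8.23 and 7.85 TPM, Prickle3 at 2.71 and 3.03 TPM and Prickle2 at 2.17 and 1.96 TPM. Prickle1 thus made up 62.0 ± 1.16% of the family and was 3.76-fold over Prickle2. Prickle3 exceeded Prickle2 by a log2 ratio of 0.46 ± 0.21, an order that flipped to -0.98 in CPM, read counts scaled to the library total with no division by length. Dishevelled proteins relay Frizzled signals both to planar polarity and to beta-catenin. Dvl2 was highest at 37.4 and 44.0 TPM, followed by Dvl3 at 24.7 and 23.1 TPM, and Dvl1 lay far lower at 4.48 and 3.95 TPM. The ranges of the 3 genes did not touch, although the lead of Dvl2 over Dvl3 fell from 1.70-fold to 1.12-fold by counts per kilobase of the longest transcript. Dvl2 made up 59.1 ± 4.06% of the family, Dvl3 34.8 ± 3.23% and Dvl1 6.15 ± 0.827%. Dvl2 was 9.44-fold over Dvl1 by gene TPM and 7.47-fold by counts per kilobase of the longest transcript. It was 30.2-fold over Dvl1 by complete coding transcripts, because 75.2% of the TPM of Dvl1 lay in transcripts annotated with a retained intron.

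The effectors of planar polarity that act at the base of the cilium were present at unlike levels. Fuz was at 21.7 and 21.4 TPM, and Intu, its partner in the same complex, was at 6.74 and 8.01 TPM. The 2.91-fold lead of Fuz shrank to 1.17-fold over complete coding transcripts, since 59.9% of Fuz TPM lay in transcripts that are not in M21. Daam1, a formin that links Dishevelled to actin, was at 5.31 and 5.32 TPM. The giant cadherins Fat and Dachsous bind each other across cells in a parallel branch of the pathway. Fat1 was at 22.2 and 20.7 TPM, 3.68-fold over Fat4 at 6.41 and 5.16 TPM and 2.02-fold over it by counts per kilobase of the longest transcript. The leading Fat1 transcript, with 63.8% and 65.1% of TPM, has 4770 bases in the deposited table and another length in M21. Dchs1, the ligand of Fat4, was at 8.49 and 7.60 TPM. The log2 ratio of Fat4 to its ligand was -0.47 ± 0.11, and it flipped to 0.02 in CPM.

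The Par complex sits at the apical junction and includes a scaffold (Pard3), an adaptor (Pard6) and an atypical protein kinase C. Pard6g dominated its family, at 58.0 TPM in replicate 1 and 57.6 TPM in replicate 2. Pard6a was at 15.3 and 16.4 TPM and Pard6b at 8.78 and 7.92 TPM. The 3 ranges lay apart, and Pard6g made up 70.4 ± 0.256% of Pard6 TPM. Its lead was 3.62-fold over Pard6a and 6.86-fold over Pard6b. The log2 ratio of Pard6a to Pard6b was 0.92 ± 0.17, and it flipped to -0.56 in CPM, since the longest Pard6a transcript has 1273 bases and that of Pard6b 3399. Pard3 was at 23.2 and 23.5 TPM against 6.03 and 5.90 TPM for Pard3b, a 3.86-fold difference that was 6.93-fold over complete coding transcripts and 8.69-fold by counts per kilobase of the longest transcript. The kinase gene Prkci was at 31.9 and 33.4 TPM and Prkcz at 15.0 and 14.0 TPM, a 2.24-fold difference that was 3.51-fold by the longest transcript. Mark2, the kinase that holds Pard3 off the lateral membrane, was at 32.6 and 35.5 TPM.

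Pard6a, at chr8:105701148-105703496 on the plus strand, is shown because its 2 annotated transcripts begin translation in different first coding stretches. The transcript with the stretch of 15 bases at chr8:105701303-105701317 held 70.8% and 58.3% of Pard6a TPM in replicates 1 and 2. The transcript with the stretch of 63 bases at chr8:105701741-105701803 held 29.2% and 41.7%. Capitals mark the stretch, from the start codon on, and lower case the first 12 coding bases that both share.
Pard6a first stretch of 15 bases: ATGAGAGCGATCCAGtttgacgccgag
Pard6a first stretch of 63 bases: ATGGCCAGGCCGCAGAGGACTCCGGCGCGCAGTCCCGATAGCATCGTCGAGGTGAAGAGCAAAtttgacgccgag
The same transcript led in both libraries, and the SD of each share was 8.84 percentage points.

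In the Crumbs complex Crb2 carried nearly all of the RNA of the pair Crb1 and Crb2. Crb2, the transmembrane organiser of the apical surface, was at 25.8 and 26.4 TPM from 4256 and 4018 expected counts. Crb1, known from the retina, was at 0.60 and 0.41 TPM from 77 and 47 expected counts. Crb2 was 43.8-fold higher and made up 98.1 ± 0.526% of the TPM of both genes. This was the widest gap of the 27 pairs of related genes compared. Crb3, a further Crumbs gene that is not a member, was at 3.06 and 3.39 TPM. The Crumbs partners Mpp5 (also called Pals1) and Patj, both scaffolds, were at 15.2 and 16.7 TPM and at 9.40 and 8.6 TPM. Mpp5 exceeded Patj 1.77-fold by gene TPM, 2.72-fold over complete coding transcripts and 3.72-fold by the longest transcript.

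The Scribble module held the most abundant polarity gene. Llgl1, a substrate of atypical protein kinase C that is kept to the basolateral side, was at 122 and 127 TPM, higher than 89.2% of detected protein-coding genes. Llgl1 lies at chr11:60699723-60714186 on the plus strand. Its paralog Llgl2 was at 6.45 and 6.53 TPM, and the log2 ratio of Llgl1 to Llgl2 was 4.24 ± 0.03, or 18.9-fold, and it was 31.8-fold over complete coding transcripts. Llgl1 made up 95.03 ± 0.0873% of the pair. The scaffold genes were closer together, with Dlg1 at 27.1 and 27.7 TPM, Scrib at 18.9 and 21.2 TPM and Dlg5 at 14.0 and 12.8 TPM. Dlg1 was 2.04-fold over Dlg5 by gene TPM and 4.42-fold over complete coding transcripts. Much of the Scrib and Dlg5 signal lay outside complete coding transcripts, as described with the transcript classes.

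Dlg1 (chr16:31663443-31875129, plus strand) is shown because its leading transcript changed between the libraries. In replicate 1 the leading transcript held 23.6% of Dlg1 TPM and in replicate 2 it held 17.8%. The other held 17.8% and then 24.95%. Their coding parts exchange a stretch of 100 bases at chr16:31846834-31846933 for a stretch of 34 bases at chr16:31847636-31847669, in both cases between the same 12 flanking bases, which are in lower case.
Dlg1 stretch of 100 bases: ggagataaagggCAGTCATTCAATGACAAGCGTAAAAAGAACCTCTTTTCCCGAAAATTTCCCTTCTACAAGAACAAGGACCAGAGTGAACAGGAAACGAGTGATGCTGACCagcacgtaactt
Dlg1 stretch of 34 bases: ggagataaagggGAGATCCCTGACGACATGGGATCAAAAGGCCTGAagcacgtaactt
All Dlg1 transcripts with the stretch of 34 bases summed to 12.7 and 14.2 TPM, and those with the stretch of 100 bases to 7.93 and 6.76 TPM. Counted over every transcript, coding or not, the shorter stretch was therefore ahead in both libraries, although the single leading transcript was not the same. All complete coding Dlg1 transcripts summed to 13.06 TPM in each library, a total that includes the leading transcript with each stretch. Part of the TPM with the shorter stretch thus lay in transcripts that are not complete coding. The order of the stretches among complete coding transcripts alone was not tested. The transcript with the shorter stretch has another length in M21 than in the deposited table, so its model may differ from the one the authors used.

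Scrib (chr15:76047158-76069784, minus strand) is shown for its alternative coding stretch. The coding parts of its 2 main complete coding transcripts differ by 75 bases at chr15:76047922-76047996.
Scrib stretch: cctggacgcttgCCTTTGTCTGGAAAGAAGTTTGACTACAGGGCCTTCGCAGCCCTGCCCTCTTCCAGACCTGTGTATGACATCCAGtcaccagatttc
The coding transcript with the stretch was at 1.27 and 0.87 TPM, and the leading coding transcript without it at 4.41 and 5.11 TPM. Over all Scrib transcripts that span the place those with the stretch gave 7.29% and 4.75%, a share set mostly by a noncoding processed transcript that lacks it, at 11.8 and 12.3 TPM.

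At the junction itself, Nectin2 and Afdn led by gene TPM. Nectins are cell adhesion molecules, and afadin (Afdn) ties them to actin. Nectin2 was at 70.4 and 82.0 TPM, Nectin3 at 25.95 and 31.4 TPM and Nectin1 at 6.82 and 6.97 TPM. The 3 ranges did not overlap, and Nectin2 made up 68.2 ± 0.0503% of the family. It was 10.9-fold over Nectin1 and 2.66-fold over Nectin3, the latter 6.15-fold by counts per kilobase of the longest transcript. On that scale the lead of Nectin3 over Nectin1 fell from 4.09-fold to 1.47-fold. Both annotated Nectin2 transcripts were used nearly equally, with 52.5% and 52.7% of TPM in the first. Afdn was at 70.2 and 69.1 TPM, the third of the 45 genes, a place that depends on short transcripts. Tjp1, which encodes the tight junction scaffold ZO-1, was at 20.9 and 22.8 TPM.

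Tjp1 (chr7:65296165-65527781, minus strand) is shown because its 2 main complete coding transcripts differ by a stretch of 240 bases, at chr7:65314093-65314332, that is known as the alpha region of ZO-1. They also differ by a stretch of 60 bases elsewhere, which is not printed. Capitals mark the longer stretch and lower case 12 flanking coding bases on either side.
Tjp1 stretch: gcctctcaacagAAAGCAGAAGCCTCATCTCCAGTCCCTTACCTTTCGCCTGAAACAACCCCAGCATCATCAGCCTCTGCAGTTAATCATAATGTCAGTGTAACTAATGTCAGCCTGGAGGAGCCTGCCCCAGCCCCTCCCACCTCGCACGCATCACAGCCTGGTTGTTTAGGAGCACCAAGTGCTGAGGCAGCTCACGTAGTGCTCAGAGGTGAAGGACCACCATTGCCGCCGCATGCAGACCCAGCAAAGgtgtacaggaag
Transcripts with the stretch gave 88.5% of the Tjp1 TPM that spans it in replicate 1 and 84.2% in replicate 2. The form with the alpha region was thus the larger in both pools.

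The genes grouped under apical constriction and closure (Shroom2, Shroom3, Cobl, Grhl2 and Grhl3) were among the lower members. Vangl2 and Ptk7, named above for their part in closure, were among the higher ones. No other stage was sampled, so a change of these levels with closure was not tested. Shroom proteins act on actin and myosin at the apical junction. Shroom3 was at 6.45 and 7.29 TPM and Shroom2 at 5.65 and 5.61 TPM, and their log2 ratio of 0.28 ± 0.13 flipped to -0.08 in CPM. Cobl, an actin nucleator, was at 1.85 and 1.5 TPM. Grhl2 and Grhl3 encode transcription factors that act in the surface ectoderm beside the closing tube. Grhl2 was at 2.24 and 2.44 TPM and Grhl3 at 2.86 and 3.34 TPM. The log2 ratio of Grhl2 to Grhl3 was -0.39 ± 0.07, and it flipped to 0.29 in CPM. Beside them, the 8 surface ectoderm markers summed to 136 TPM in replicate 1 and 125 TPM in replicate 2. Their part in the Grhl levels was not tested.

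Of the 27 pairs of related genes, 26 had the same order in both libraries with a mean log2 ratio above its SD, and Celsr1 with Celsr3 was the exception. In 5 pairs the order of the means flipped when counts were not divided by length, as given above with each. The mean ratio flipped in no ordered pair under complete coding transcripts or counts per kilobase of the longest transcript. Celsr1 with Celsr3, which had no order to begin with, did change sign. By counts per kilobase of the longest transcript, Shroom3 was below Shroom2 in replicate 1 (2.85 against 2.96). It was above Shroom2 in replicate 2 (3.36 against 2.95). The rule for an ordered pair was not applied anew on these scales. Along the order of all 45 levels, 20 of 44 neighbouring genes had ranges that did not touch and 24 overlapped. The first 6 steps, from Llgl1 through Nectin2, Afdn, Pard6g, Ptk7 and Dvl2 to Vangl2, were all apart. From Patj at 9.00 TPM down to Llgl2 at 6.49 TPM, 9 genes formed a run in which each overlapped its neighbour. The order of neighbours in this run does not stand beyond the spread of the libraries. Genes farther apart in it could still be separate, as Patj (9.40 and 8.60 TPM) was from Llgl2 (6.45 and 6.53 TPM).

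**Figure D2:**
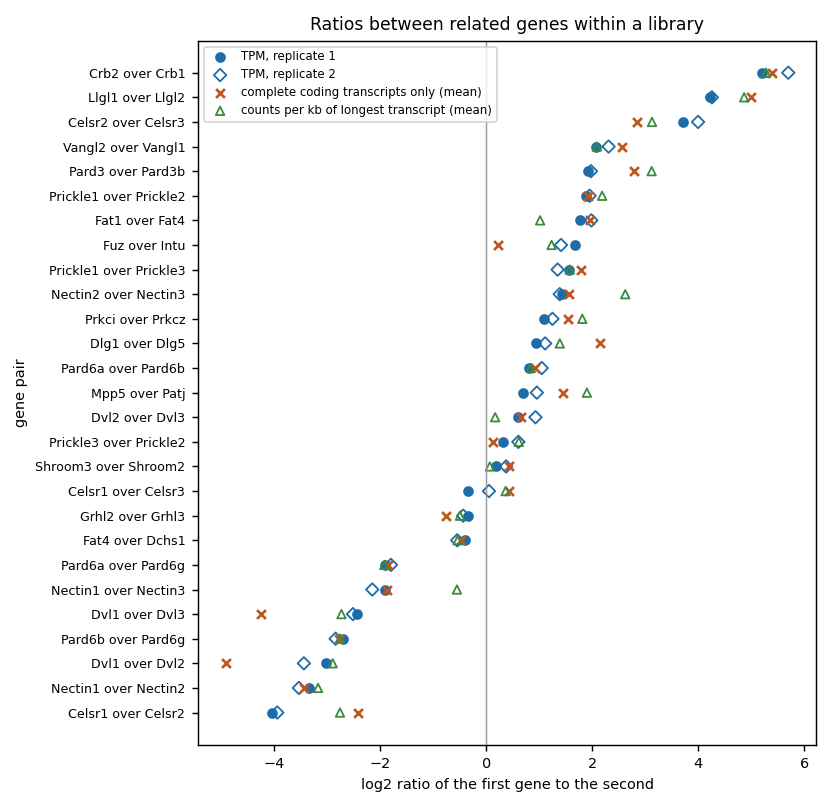
Log2 ratio of the first gene of each pair to the second, by TPM in each library (blue), by complete coding transcripts (orange crosses) and by counts per kilobase of the longest transcript (green triangles). Crb2 over Crb1 and Llgl1 over Llgl2 lie farthest to the right, and the orange crosses for Dvl1 lie far left of its gene TPM.

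Gene TPM sums all annotated transcripts, and for several members most of it lay outside transcripts annotated with a complete coding sequence. The shares rest on how the authors' model assigned reads of total RNA to transcripts, and their accuracy was not tested. M21 classes were set for each transcript as complete coding, partial coding (coding with an open end), retained intron, processed transcript (spliced without a coding sequence) or nonsense-mediated decay. Transcripts that are not in M21 have no class and were kept apart, and they held 59.9% of Fuz TPM and 7.67% of Dchs1 TPM. Of 45 members, 9 had a single annotated transcript and 36 had several and were compared. In the median such member 77.1 ± 1.62% of TPM lay in complete coding transcripts, against 86.9 ± 0.0931% over all 9073 detected protein-coding genes with several transcripts. Under 50% in both libraries were 9 of 36 members (Afdn, Celsr2, Dlg1, Dlg5, Dvl1, Fuz, Mark2, Pard3b and Scrib), against 14.9% of the 9073 genes. For Fuz the rest had no class, so its count here depends on the annotation. The leading transcript itself was of a noncoding class in both libraries in 3 members, Dvl1, Pard3b and Scrib, where the share of all such genes was 7.47%. At 3 of 36, that count is near the background.

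**Figure D3:**
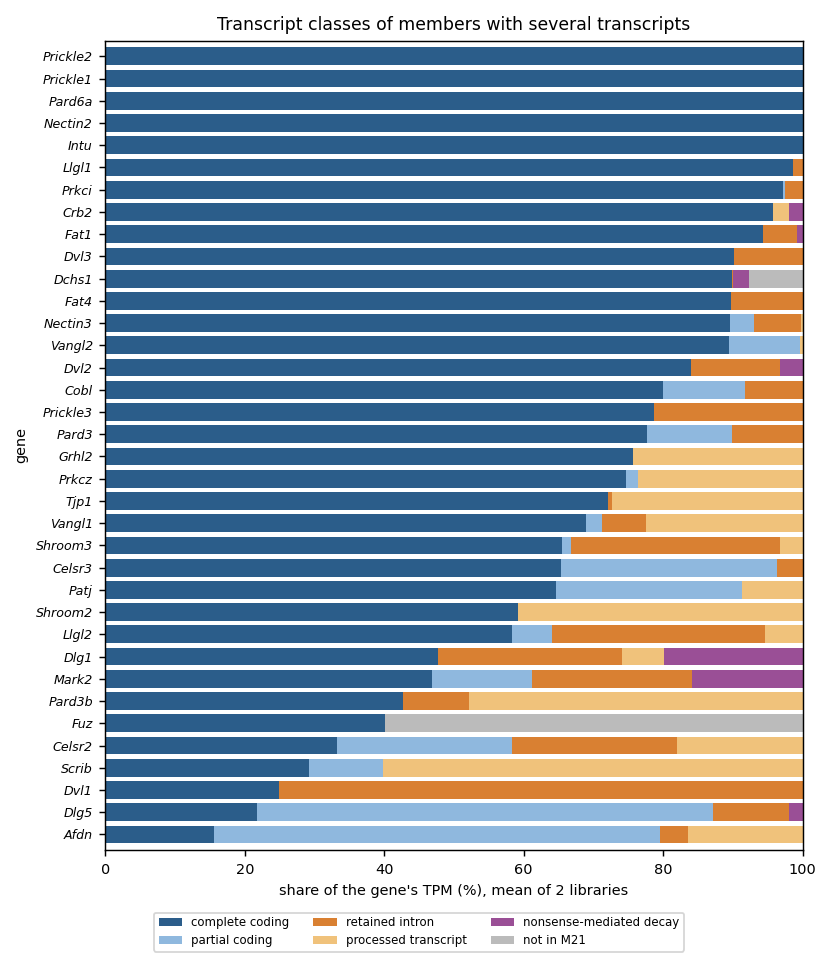
Stacked bars of the mean percent of gene TPM in each M21 transcript class for the 36 members with several transcripts, ordered by the complete coding share. Afdn, at the bottom, is mostly partial coding (64.0%), and Dvl1 is mostly retained intron (75.2%).

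Afdn was the clearest case. Its partial coding transcripts of 798 and 822 bases held 35.4% and 22.5% of TPM in replicate 1 and 37.7% and 26.8% in replicate 2, while its longest transcript has 7732 bases. Complete coding Afdn transcripts reached 10.9 ± 0.453 TPM, which moved the gene from rank 3 to rank 18 of 45. By counts per kilobase of its longest transcript it stood at rank 11. In Scrib a processed transcript of 3071 bases held 62.1% and 58.2% of TPM, and complete coding transcripts reached 5.83 ± 0.212 TPM. In Dlg5 partial coding transcripts held 65.4%, and the gene moved from rank 23 to rank 36. Celsr2 moved from rank 10 to rank 20, with 9.56 ± 1.10 TPM in its complete coding transcript. For Dvl1 the complete coding level was 0.95 and 1.12 TPM, so that it no longer passed 1 TPM in both libraries and 43 members remained detected. Llgl1, Nectin2 and Pard6g were ranks 1, 2 and 3 over complete coding transcripts.

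**Figure D4:**
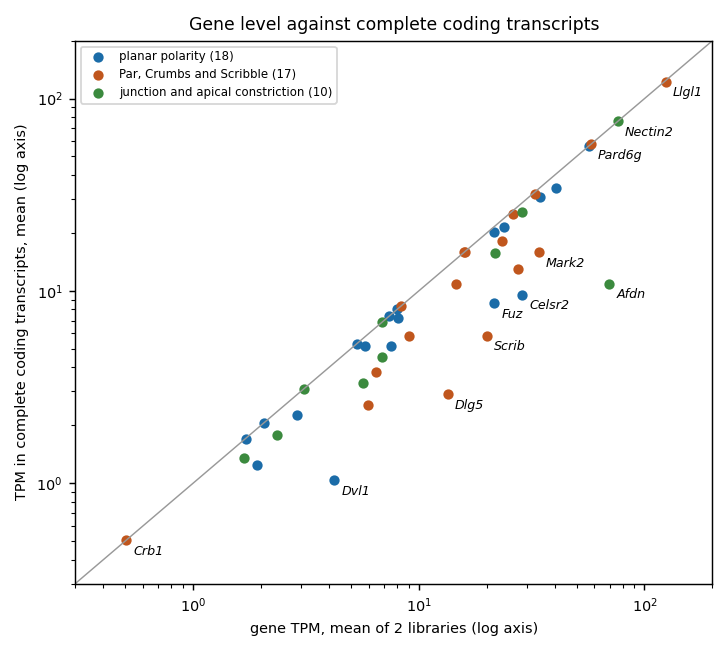
Mean TPM in complete coding transcripts against mean gene TPM, both on log axes, for the 45 genes. Points on the line have all their TPM in complete coding transcripts, and Afdn, Dlg5, Scrib and Dvl1 lie farthest below it.

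Several members had no dominant transcript. The leading transcript held under 50% in both libraries in 11 of 36 members, against 20.1% of the 9073 genes. These were Afdn, Celsr2, Dlg1, Dvl1, Fuz, Mark2, Pard3, Patj, Prickle2, Prickle3 and Prkcz. In Patj a complete coding transcript of 7340 bases led in replicate 1 at 25.8%, while a partial coding transcript of 1637 bases led in replicate 2 at 27.9%. In Dlg1 the leaders held 23.6% and 24.95%. Patj and Dlg1 were the 2 of 36 members with another leading transcript in the other library, against 8.05% of all such genes. In Patj the margins were small, since the transcript of 1637 bases had held 22.2% in replicate 1 and the one of 7340 bases still held 27.6% in replicate 2.

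The pools gave nearly the same levels for these genes. By expected counts, no member was over 2-fold apart between the libraries, against 3.28% of the 17174 annotated genes that averaged at least 10 counts. The log2 ratio of replicate 2 to replicate 1 had a median of -0.02 over the members, and 21 were higher and 24 lower in replicate 2. Its median absolute size was 0.0823, against 0.0837 for the 13012 genes in the same range of mean counts. The exact 95% interval of the ratio, which covers counting error only, left out 0 for 18 of 45 members, against 30.8% of the 17174 genes. Members averaged at least 62 counts, so neither this share nor that of 2-fold differences is matched for counts. The lowest ratio was that of Crb1, at -0.57 with an interval of -1.13 to -0.03. Fat4 was lower in replicate 2 by more than counting error, at -0.31 with an interval of -0.40 to -0.23. Shroom3 had the highest ratio at 0.25 (0.11 to 0.39), followed by Grhl3 at 0.21 (-0.07 to 0.49) and Nectin2 at 0.21 (0.15 to 0.27).

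Some marker lists moved between the pools too. All 6 neuron markers were lower in replicate 2, with a median log2 ratio of -0.35 and summed levels of 445 and 352 TPM, led by Tubb3 at 221 and 175 TPM and Map2 at 62.1 and 50.7 TPM. Of 8 surface ectoderm markers 6 were lower, with a median of -0.17. All 5 erythroid markers were lower as well, with a median of -0.42, led by Hbb-y at 9046 and 6644 TPM and Hbb-bh1 at 4594 and 3498 TPM. Of 6 neuroepithelium markers 5 were lower, with a median of -0.06 and Fabp7 lowest at -0.71. Other lists were mixed, with 3 of 6 mesenchyme, 4 of 6 endothelium and 3 of 5 forebrain markers higher in replicate 2. Among the members, Crb1 and Fat4 above, Llgl2 at -0.30, Cobl at -0.28, Prickle2 at -0.26 and Celsr3 at -0.25 were the lowest. The part of these cells in the differences between libraries was not tested.

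**Figure D5:**
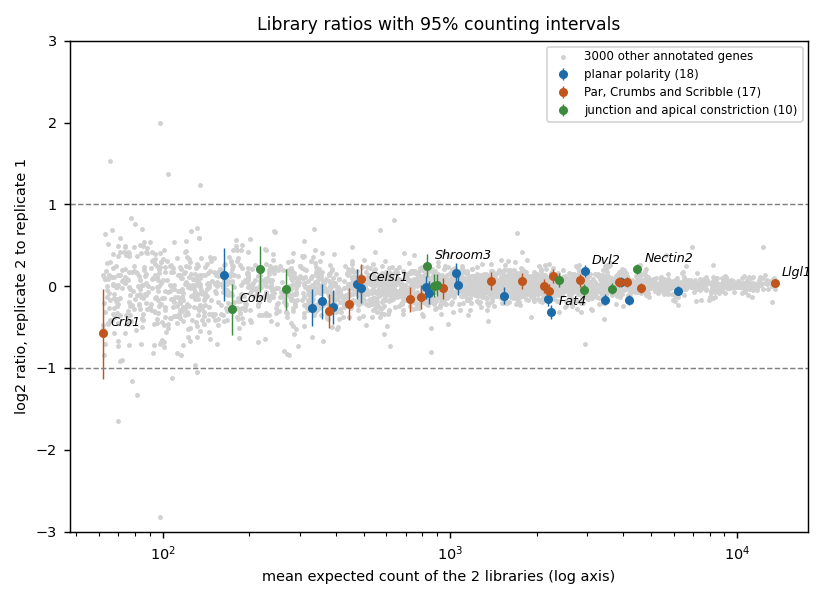
Log2 ratio of replicate 2 to replicate 1 against the mean expected count (log axis), with grey points for 3000 other genes drawn from the same range of counts, coloured points for the 45 members and bars for 95% counting intervals. All members lie between the dashed lines at a 2-fold difference, and Crb1 lies lowest at -0.57.

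The direction of a small difference between pools could depend on the scale. In 9 of 44 detected members (Daam1, Dlg1, Dlg5, Fuz, Grhl2, Llgl2, Shroom2, Tjp1 and Vangl1) the ratio had opposite signs in TPM and in counts, against 10.6% of 13868 detected genes. The scales differed by over 0.25 on the log2 scale in a single member, Llgl2, against 2.42% of those genes. By counts Llgl2 was lower in replicate 2, with a log2 ratio of -0.30 (-0.51 to -0.09), whereas its TPM ratio was 0.02. Its effective length, the mean usable length over the transcripts assigned, was 2441 bases in replicate 1 and 1976 bases in replicate 2. A retained intron transcript of 451 bases held 10.4% of Llgl2 TPM in replicate 1 and 26.4% in replicate 2.

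Other genes of the same pathways were mostly expressed too. In a list of 25 further planar polarity genes 22 were detected. The small GTPases Rhoa (245 and 219 TPM) and Rac1 (222 and 235 TPM) were highest, followed by the glypican Gpc4 (62.7 and 71.5 TPM), the receptor Fzd3 (54.7 and 54.7 TPM) and Sec24b (30.7 and 31.3 TPM), a coat protein that exports Vangl2. Wnt11 at 0.15 and 0.28 TPM, Fat2 at 0.02 and 0.04 TPM and Dchs2 at 0.00 and 0.01 TPM were under 1 TPM in both. Among 20 further apicobasal genes 17 were detected, led by Cdc42 (480.2 and 489.7 TPM), which activates the Par complex. Next were Ezr (98.1 and 88.0 TPM), Prom1 (80.9 and 92.6 TPM), Lin7c (76.6 and 79.9 TPM) and Amotl2 (42.4 and 44.4 TPM), all of proteins found at the apical side or its junctions. Lin7a, Lin7b and Dlg2 were under 1 TPM in both libraries, so Lin7c stood far above its paralogs.

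Of 30 further junction and actin genes 27 were detected. Cfl1 (2112 and 2127 TPM) and Pfn1 (1562 and 1598 TPM), which turn over and supply actin, were highest. Marcksl1 (1224 and 1230 TPM), Ctnnb1 (447 and 449 TPM) and Cdh2 (169 and 169 TPM), the neural cadherin, came next. Nectin4 at 0.80 and 0.79 TPM and Grhl1 at 0.30 and 0.22 TPM were undetected, the former unlike its paralogs Nectin1, Nectin2 and Nectin3. Shroom1 at 0.99 and 1.43 TPM missed the limit in replicate 1 only. Across these lists the median levels were 9.94 ± 0.276 TPM for planar, 13.4 ± 0.626 TPM for apicobasal and 15.9 ± 0.587 TPM for junction genes.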

How the data were processed

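Members and lists were chosen with earlier results of these data known. Expected counts, estimated reads per gene and transcript that need not be whole, were used as the authors deposited them, in a gene and a transcript table per library. The deposited TPM values are divided by length, and posterior means of TPM served as an alternative. Isoform percent, the part of a gene's TPM that a transcript holds, was also deposited, per the file headers. Notes deposited with the samples name assembly mm10 and annotation M4. The aligner and quantification tool were not given in the sources used here.

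Levels were taken as log2(TPM + 0.1). A pair was ordered where both libraries gave the same sign and the mean log2 ratio exceeded its SD. Library ratios used expected counts plus 0.5 over library sizes scaled by TMM in edgeR 4.0.16, on rounded counts of 16637 genes. As an alternative, DESeq2 1.42.0 size factors were taken from the rounded counts of all annotated genes. Exact binomial intervals (95%) cover counting error only. The common coefficient of variation between the libraries was 6.59%. Coordinates, classes and sequences came from GENCODE M21, whose assembly, GRCm38, is mm10 under another name. Of 285 member transcripts 252 had the same length there and 14 were not in M21. Coding stretches were sought between the leading pair of complete coding transcripts of a member, each with at least 5% of its TPM, where they differed by at most 300 bases a stretch, and 10 members gave 17 stretches. Those printed and those named after their values were seen are a selection. Tests on simulated data for replicate 2 against replicate 1 covered 17204 genes. They called 100% of 200 genes changed 4-fold, and 0.917% of the unchanged genes. All changed genes averaged at least 100 counts, which leaves out low genes such as Crb1. A call meant a difference over 2-fold, so differences as small as those of the members were not tried.

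The text names every member. Of each pathway list it names the 5 highest and those under 1 TPM in both libraries, of each marker list the 2 highest where any was detected, and for transcripts the members whose leader changed or held under 50% in both. Crb3, Fabp7, Krt5 and Shroom1 were named after their values were seen.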

Additional observations from a re-analysis of the deposited data

How the results depend on the processing

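Without division by length (CPM) the order of the means flipped in 5 of 26 ordered pairs. The log2 ratios became -0.98 for Prickle3 over Prickle2, 0.024 for Fat4 over Dchs1, -0.56 for Pard6a over Pard6b, -0.080 for Shroom3 over Shroom2 and 0.29 for Grhl2 over Grhl3. The cause lies in the setting, which leaves transcript length in. On the log2(TPM + 0.1) scale the median of the planar members was 3.004, and it became 3.16 with a pseudocount of 1, 4.73 in CPM and 2.88 over complete coding transcripts. The apicobasal median of 4.01 became 4.17 over detected members, 5.49 in CPM and 3.72 over complete coding transcripts. The junction median of 2.80 became 2.98 with a pseudocount of 1, 4.50 in CPM and 2.50 over complete coding transcripts. The setting with complete coding transcripts was chosen after seeing the data. Members detected numbered 44, 44 at 0.5 TPM, 36 at 5 TPM and 43 over complete coding transcripts. No member was over 2-fold apart under any scaling or filter tried. Members with another leading transcript went from 2 to 1 among genes of 10 TPM or more and to 4 by the posterior mean percent, and the cause was not tested. No paired analysis was possible because there is a single group. Of 27 pairs, 20 moved by more than the spread between libraries in CPM besides the 5 that flipped. By the longest transcript 19 moved, and over complete coding transcripts 17. Among the moved pairs the mean changed sign only for Celsr1 with Celsr3, which had no order by TPM. Its log2 ratio went from -0.15 to 0.33 in CPM, 0.36 by the longest transcript and 0.43 over complete coding transcripts. A design of 2 libraries of a single group cannot show variation between embryos, and low members such as Crb1 rest on few counts.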

Other observations

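Further coding stretches were told apart by transcript shares. In Mark2, transcripts that hold a stretch of 162 bases gave 38.2% and 39.8% of the TPM that spans it, and those with another stretch of 27 bases gave 83.3% and 84.6%. In Fat1, transcripts with a stretch of 36 bases gave 69.1% and 71.3%. In Pard3b, a stretch of 297 bases was held by 68.8% and 65.1% of the spanning TPM. These shares lay within a few percentage points between the pools.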
